A study of Mus musculus with 3 samples.

Results

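Genes of cholesterol and fatty acid synthesis were followed across the transcriptomes of NIH3T3, an established line of mouse embryonic fibroblasts, that had been left unstimulated or stimulated with GDF15 or TGF-β. The set holds 36 genes (38 names, because *Msmo1* and *Sc5d* are also listed under the older symbols *Sc4mol* and *Sc5dl*) of the 15554 rows of the table. They are 18 enzymes of the sterol pathway, 5 genes that sense sterols and control transcription, 1 sterol carrier, 10 enzymes of fatty acid synthesis and modification and 2 other lipid enzymes. All 36 were found, each on a single row, *Msmo1* as *Sc4mol*, and all had a mean FPKM (mapped fragments scaled to the length of the gene model and the size of the library) above the minimum of 1 that 9226 rows passed. The genes were chosen by their place in the pathway, after the changes of *Hmgcs1*, *Idi1* and *Cyp51* in these same libraries were known. Their changes are therefore given as a description, with no test.

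The study asked whether GDF15, a secreted member of the TGF-β superfamily, acts on fibroblasts as TGF-β does. The cells of all 3 groups were kept without serum for 24 h, and the medium was then renewed for another 24 h, without a factor (CTRL), with GDF15 at 100 ng/mL (GDF15) or with TGF-β at 4 ng/mL (TGF-β). RNA was pooled within each treatment and 1 stranded mRNA library was sequenced for each, so no difference has a replicate error and no p-value is given. All 3 groups are the same line in serum-free medium, so the groups show what the factors add to serum withdrawal and not the withdrawal itself.

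Cholesterol is built from acetyl-CoA through mevalonate, isoprenoid units, squalene and lanosterol, and most enzymes of this route are transcribed under SREBP-2, the product of *Srebf2*. SREBP precursors sit in the endoplasmic reticulum bound to SCAP. When membrane sterol is high, INSIG proteins hold this complex in place. When sterol falls, SCAP carries the precursor to the Golgi, where it is cleaved, and the released factor enters the nucleus. SREBP-1, the product of *Srebf1*, is known more for fatty acid synthesis. Fibroblasts make both lipids for their own membranes.

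The depth, estimated from the steps of single fragments among low FPKM, was 17100000 fragments in the CTRL library, 20000000 in that of GDF15 and 16300000 in that of TGF-β. The members were covered by an estimated 241 to 30146 fragments per library, and their counting error on the log2 scale was at most 0.12 (1 SE) in each comparison. This covers counting only, not variation between cultures. Changes are differences of log2(FPKM + 1). Genes were counted as higher or lower when this difference passed 1.5-fold (0.58 on the log2 scale) or 2-fold (1). Over the 9226 genes, the median change was -0.03 in GDF15 against CTRL, -0.07 in TGF-β against CTRL and -0.04 in TGF-β against GDF15. All 7 listed fibroblast markers were abundant, with an FPKM between 34.7 (*Thy1* in GDF15) and 5815 (*Fn1* in GDF15). Adipocytes are rich in enzymes of fatty acid synthesis, and of 6 adipocyte markers *Plin1*, *Cidec* and *Pparg* were listed at 0 in every library. *Adipoq* and *Fabp4* stayed at or below an FPKM of 0.419, and *Lpl* had 43.5 in CTRL, 58.4 with GDF15 and 44.7 with TGF-β. The summed FPKM of the markers of epithelial cells was at most 0.735, of immune cells at most 4.09 and of hepatocytes at most 0.117. In bulk RNA, a change in the number of cells of a kind and in the RNA per cell cannot be told apart.

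Nearly all of the listed sterol enzymes, which are not every enzyme of the pathway, were higher with TGF-β. Of the 18 sterol enzymes, 17 were over 1.5-fold higher in TGF-β than in CTRL and 11 were over 2-fold higher, while 0 were over 1.5-fold lower. Over all 9226 genes, 2.54% were over 1.5-fold higher, 0.932% over 2-fold higher and 3.06% over 1.5-fold lower. The median change of the 18 was 1.06 on the scale of log2(FPKM + 1), and the median of their FPKM ratios, taken without a pseudocount, was 2.13. The summed FPKM of the 18 enzymes was 620 in CTRL, 804 with GDF15 and 1314 with TGF-β. For 17 of them the order of the libraries was CTRL, then GDF15, then TGF-β, an order found in 13.7% of the 9226 genes. Since these comparisons share libraries, the order is not independent evidence from each.

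The first steps make and activate mevalonate. *Hmgcs1*, which joins acetoacetyl-CoA and acetyl-CoA to HMG-CoA, had an FPKM of 54.7 in CTRL, 85.9 with GDF15 and 138 with TGF-β. Its change in TGF-β was 1.31, rank 43 of the 9226 genes. *Acat2*, the cytosolic thiolase that makes acetoacetyl-CoA, had 39.2, 46.1 and 78.4 in the same order. TGF-β was the high library for both, and GDF15 stood higher above CTRL for *Hmgcs1* (0.64) than for *Acat2* (0.23). The kinases *Mvk* (21.6, 22.9 and 38.5) and *Pmvk* (18.2, 19.1 and 34.4) and the decarboxylase *Mvd* (17.9, 19.2 and 40.0) were likewise high in TGF-β and near CTRL in GDF15. Their changes in TGF-β were 0.81, 0.88 and 1.12, and those in GDF15 lay between 0.06 and 0.09.

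The next steps lead from isopentenyl diphosphate to lanosterol. *Idi1*, the isomerase of isopentenyl diphosphate, had an FPKM of 30.3 in CTRL, 46.1 with GDF15 and 74.0 with TGF-β, and its change in TGF-β was 1.26. *Fdps*, farnesyl diphosphate synthase, had 91.2, 115 and 193. *Sqle*, squalene epoxidase and a control point of the pathway, was the most abundant of the 18, with 99.5, 138 and 214. In all 3 genes GDF15 lay between CTRL and TGF-β. *Fdft1*, squalene synthase, went from 26.4 in CTRL to 29.4 and 45.1, and *Lss*, lanosterol synthase, from 15.9 to 19.8 and 34.0. The changes in TGF-β of these 5 genes were between 0.75 (*Fdft1*) and 1.26 (*Idi1*). *Fdft1* shares 774 exonic bases with *Ctsb* on the opposite strand in the annotation, and *Ctsb* went the other way, with 169, 136 and 112 in CTRL, GDF15 and TGF-β. *Fdps* shares 1124 exonic bases with *Gm43738* on the same strand. Whether strand was used in counting is not given in the sources used here.

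In TGF-β against CTRL, the steps after lanosterol held both the largest and the smallest changes of the listed sterol enzymes. *Hsd17b7*, a keto-reductase of sterol C4 demethylation, had an FPKM of 9.60 in CTRL, 15.3 with GDF15 and 25.6 with TGF-β, and its change of 1.33 in TGF-β was the largest of the 36 genes (rank 42). *Cyp51*, lanosterol demethylase, had 59.3, 88.5 and 139. *Nsdhl* and *Msmo1*, which also act in C4 demethylation, had 13.8, 19.6 and 31.3, and 61.9, 75.5 and 127. In these 4 genes GDF15 again lay between the other libraries. *Tm7sf2*, a sterol reductase, had 9.42 in CTRL, 10.6 with GDF15 and 23.6 with TGF-β, so that GDF15 lay close to CTRL, and it shares 532 exonic bases with *Vps51* on the same strand. *Sc5d* and *Dhcr7*, late desaturase and reductase, reached 27.4 and 32.8 in TGF-β from 14.3 and 20.97 in CTRL, changes of 0.90 and 0.62. *Ebp*, the sterol isomerase, was the exception. Its FPKM was 15.6 in CTRL, 14.3 with GDF15 and 18.3 with TGF-β, and its change in TGF-β was 0.22. This lay 1.25 local spreads above the local median, against 3.41 or more for the other 17 enzymes. The local median and spread are the median change and the median absolute deviation, scaled to an SD, among genes of similar expression.

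**Figure D1:**
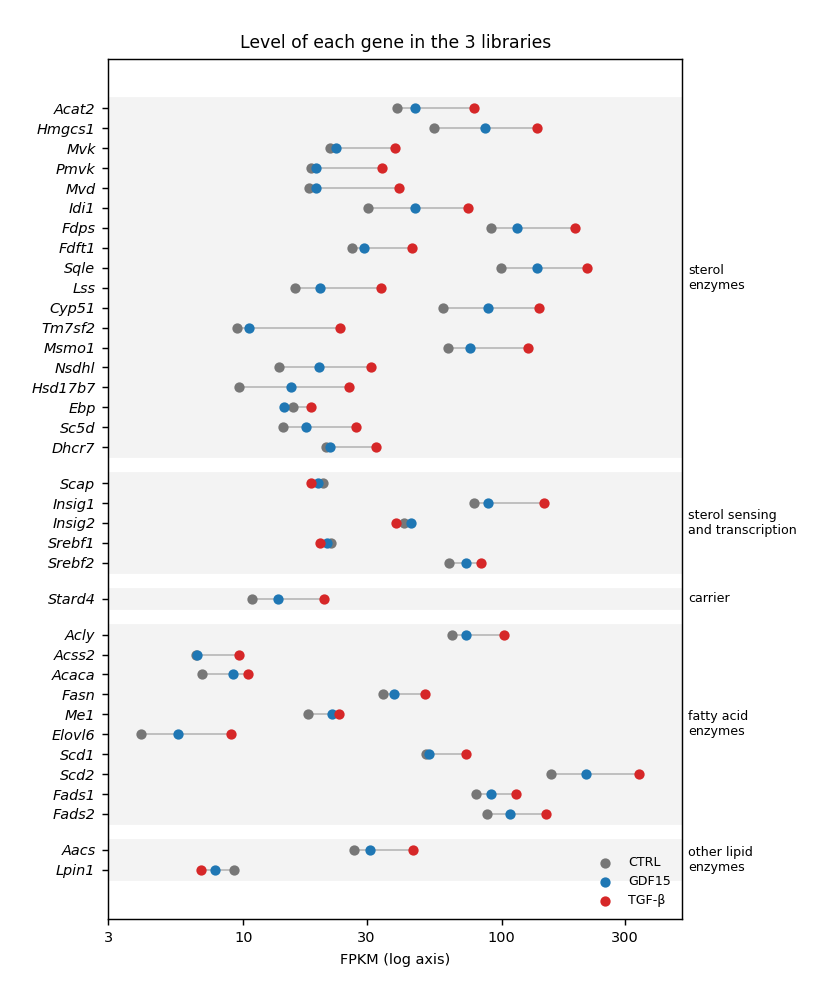
FPKM (log axis) of the 36 genes in the libraries CTRL (grey), GDF15 (blue) and TGF-β (red), in pathway order within each group; a point is 1 pooled library and a line joins the lowest and the highest. TGF-β is the highest library in all 18 sterol enzymes and all 10 fatty acid enzymes, whereas *Scap*, *Insig2*, *Srebf1* and *Lpin1* are lowest in TGF-β.

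The genes of sterol sensing did not change together. *Insig1*, whose product retains SCAP and which is itself an SREBP target, had an FPKM of 77.8 in CTRL, 88.7 with GDF15 and 146 with TGF-β. Its relative *Insig2* had 41.8, 44.6 and 39.1, so the FPKM ratio of *Insig1* to *Insig2* was 1.86, 1.99 and 3.74 in the same order. *Srebf2* had 62.4, 72.9 and 83.2, a change of 0.41 in TGF-β that did not pass 1.5-fold. *Srebf1* had 21.8, 21.2 and 19.8, and *Scap* 20.4, 19.5 and 18.2, so that both differed little between the libraries. Of the 5 genes, *Insig1* alone was over 1.5-fold higher in TGF-β (0.90) and 0 were over 1.5-fold lower, beside 2.54% and 3.06% over all genes, so that the 0 of 5 is no result. *Stard4*, a carrier that moves sterol between membranes, rose from 10.8 in CTRL to 20.5 in TGF-β, with 13.6 in GDF15. The *Srebf1* values sum the transcripts of SREBP-1a and SREBP-1c, and the cleaved proteins were not measured.

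The fatty acid enzymes moved in the same direction but less. In TGF-β against CTRL, 4 of 10 were over 1.5-fold higher, 1 was over 2-fold higher and 0 were over 1.5-fold lower, beside 2.54%, 0.932% and 3.06% over all genes. Their median change was 0.53, against 1.06 for the sterol enzymes, a difference of 0.54. Of the sterol enzymes, 17 of 18 lay above the median of the fatty acid enzymes, and 1 fatty acid enzyme, *Scd2*, lay above the median of the sterol enzymes. The ranges overlapped (0.22 to 1.33 and 0.39 to 1.12). Members are not replicates of a condition, so this difference carries no test.

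Among the fatty acid enzymes, those of core synthesis lay at the median of the group and the desaturation and elongation steps were uneven. *Fasn*, fatty acid synthase, had an FPKM of 34.7 in CTRL, 38.2 with GDF15 and 50.5 with TGF-β, and *Acaca*, the carboxylase that makes malonyl-CoA, had 6.93, 9.16 and 10.4. Their changes in TGF-β were 0.53 each, under 1.5-fold, but both passed it with upper quartile scaling (0.59 each) or with the running median by expression removed (0.60 and 0.62), and *Acaca* passed it without a pseudocount (0.59). *Acly*, which splits citrate to supply acetyl-CoA, passed it with 64.2, 73.0 and 102, whereas *Acss2*, which makes acetyl-CoA from acetate, had 6.55, 6.60 and 9.60. *Acss2* shares 395 exonic bases with *Gss* (18.8, 15.4 and 15.9) and 335 with *Acss2os*, both on the opposite strand. *Me1*, a source of NADPH, had 17.8, 22.1 and 23.5, and its change of 0.39 in TGF-β was the smallest of the 10. *Scd2*, a stearoyl-CoA desaturase, was the most abundant of the 36 genes, with 155 in CTRL, 211 with GDF15 and 339 with TGF-β, a change of 1.12. Its relative *Scd1* had 50.9, 52.5 and 72.6, a change of 0.50, and the FPKM ratio of *Scd2* to *Scd1* was 3.06, 4.02 and 4.67. The elongase *Elovl6* was the least abundant of the 36 in CTRL and had 4.00, 5.58 and 8.99, a change of 0.997 that lay just under 2-fold. The desaturases *Fads1* and *Fads2* reached 114 and 149 in TGF-β from 79.7 and 87.8 in CTRL, with changes of 0.51 and 0.75. The 50-base reads of close relatives such as *Scd1* and *Scd2* may be shared between them.

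The remaining lipid enzymes went in opposite directions. *Aacs*, which activates acetoacetate for lipid synthesis, had an FPKM of 26.8 in CTRL, 30.9 with GDF15 and 45.3 with TGF-β, a change of 0.74. *Lpin1*, a phosphatidate phosphatase of glycerolipid synthesis, had 9.18, 7.81 and 6.88. It was the lowest of the 36 in change by either factor (-0.21 and -0.37), under 1.5-fold in both.

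**Figure D2:**
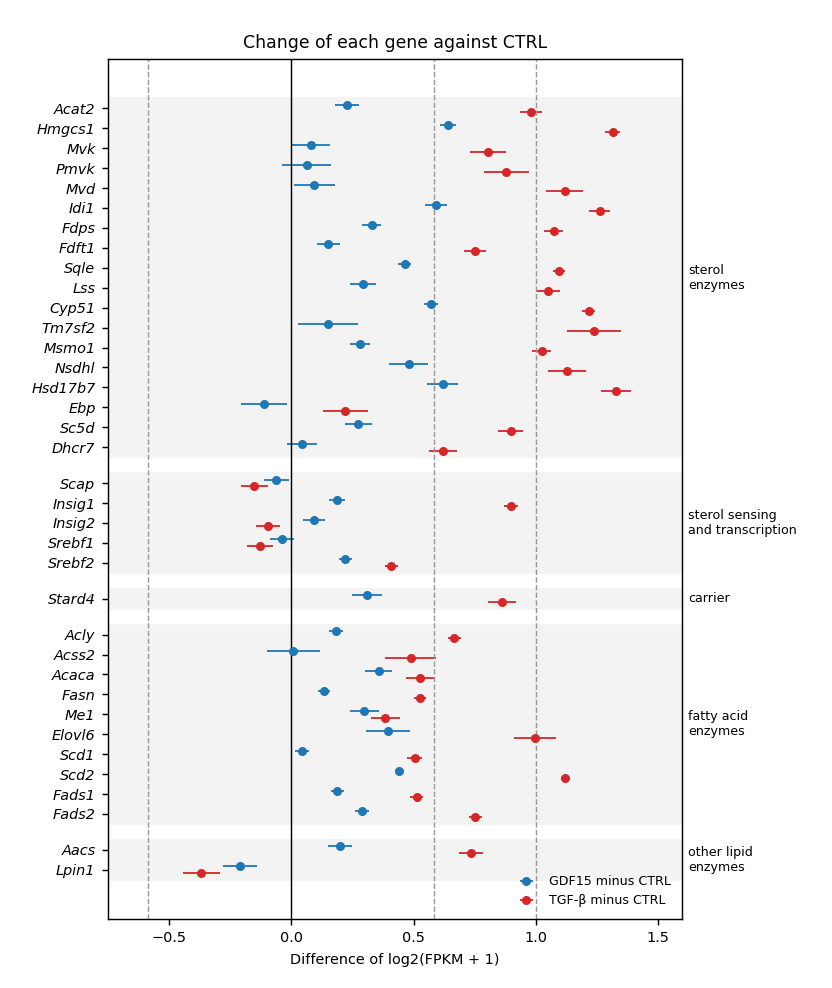
Difference of log2(FPKM + 1) against CTRL for each of the 36 genes in GDF15 (blue) and TGF-β (red); error bars are 1 SE of counting estimated from depth, not of replicates, and dashed lines mark 1.5-fold lower, 1.5-fold higher and 2-fold higher. In TGF-β 24 genes lie beyond the 1.5-fold line and 12 beyond 2-fold, and in GDF15 3 and 0.

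GDF15 gave smaller values in the same libraries. Of the 18 sterol enzymes, 3 were over 1.5-fold higher in GDF15 than in CTRL, namely *Hmgcs1* (0.64), *Hsd17b7* (0.62) and *Idi1* (0.59), with *Cyp51* just below (0.57). Over all 9226 genes 1.27% passed this fold, 1.55% were over 1.5-fold lower and 0.347% over 2-fold higher. Of the 36 genes, 0 were over 2-fold higher or over 1.5-fold lower. The FPKM of 17 of the 18 sterol enzymes and of all 10 fatty acid enzymes was nonetheless above that of CTRL, as it was for 44.4% of all genes on the log2 scale. The medians were 0.28 for the sterol and 0.24 for the fatty acid enzymes, a difference of 0.04, with ranges from -0.11 to 0.64 and from 0.01 to 0.44. The difference was 0.11 with the trend of length removed and 0.08 with those of length and GC content removed. With the trend of length removed, the fatty acid enzymes *Fasn* (-0.03) and *Scd1* (-0.02) lay below 0. Within the sterol enzymes GDF15 was uneven. *Hmgcs1*, *Idi1*, *Cyp51*, *Hsd17b7*, *Nsdhl* and *Sqle* lay between 0.46 and 0.64, whereas *Mvk*, *Pmvk*, *Mvd* and *Dhcr7* lay at or below 0.09 although each was over 1.5-fold higher in TGF-β. Measured from the local median, the change in GDF15 was at most 3.23 local spreads (*Idi1*), and in TGF-β at most 6.63 (*Tm7sf2*).

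Changes by GDF15 followed transcript length across the transcriptome. Spearman's rho between the change and the length of the longest coding transcript was 0.48 for GDF15 and 0.24 for TGF-β over 9192 genes, which are not independent and share libraries. Within the 18 sterol enzymes it was 0.51 for GDF15 and 0.22 for TGF-β, also as a description. Several sterol enzymes that stood low in GDF15 have short transcripts, such as *Pmvk* (1194 bases), *Mvk* (1660) and *Mvd* (1756), and the highest have longer ones, such as *Hsd17b7* (4612) and *Hmgcs1* (3464). *Fdps*, at 1382 bases, had a change of 0.33. Once the trends with length and GC content had been taken out, the changes of *Pmvk*, *Mvk* and *Mvd* in GDF15 were 0.32, 0.29 and 0.30, those of *Hmgcs1*, *Hsd17b7* and *Idi1* were 0.55, 0.51 and 0.50, and 0 of the 18 passed 1.5-fold. Of the 9192 genes with a length, 113 passed it, so that 0 of 18 is near the background. All 18 sterol enzymes were then above 0, *Ebp* at 0.01, beside a median of -0.006 over all genes. Among the fatty acid enzymes, *Scd1* was below 0 (-0.03). In TGF-β, 17 of the 18 still passed 1.5-fold and 13 passed 2-fold after the same correction, beside 290 and 98 of the 9192 genes. The fatty acid enzymes have longer transcripts (median 4629 bases against 2504 for the sterol enzymes and 3139 for all genes), and after the correction the medians of the sterol and fatty acid enzymes were 1.13 and 0.58 in TGF-β and 0.31 and 0.23 in GDF15.

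**Figure D3:**
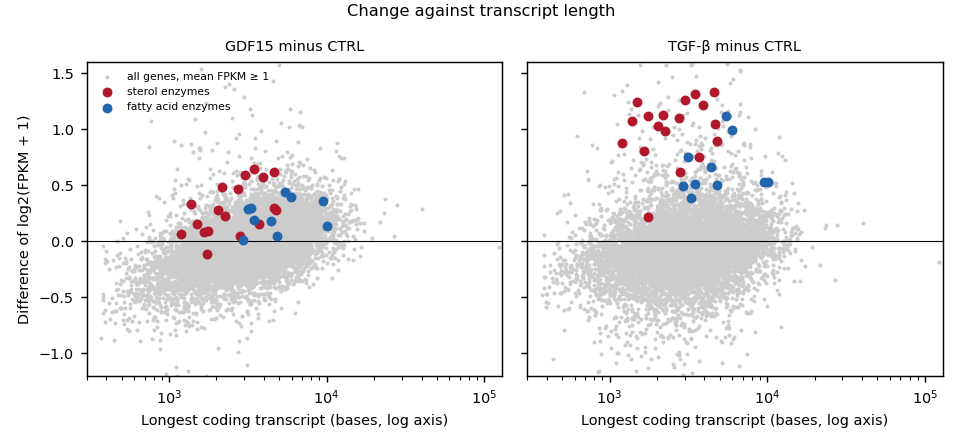
Difference of log2(FPKM + 1) against CTRL by length of the longest coding transcript (bases, log axis) for genes above the minimum FPKM (grey), sterol enzymes (dark red) and fatty acid enzymes (dark blue), in GDF15 (left) and TGF-β (right). The grey cloud rises with length in GDF15 (rho 0.48) more than in TGF-β (rho 0.24); 17 and 50 genes lie outside the vertical range drawn.

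TGF-β and GDF15 were also compared with each other, without the CTRL library. Of the 18 sterol enzymes, 16 were over 1.5-fold higher in TGF-β than in GDF15 and 2 were over 2-fold higher, *Tm7sf2* (1.09) and *Mvd* (1.02). Over all genes 0.91% were over 1.5-fold higher, 0.13% over 2-fold higher and 0.629% over 1.5-fold lower. The other sterol enzymes were *Dhcr7* (0.577 on the log2 scale, just under 1.5-fold) and *Ebp* (0.33). Of the fatty acid enzymes, *Scd2* (0.68) and *Elovl6* (0.60) passed 1.5-fold, and the median of the 10 was 0.46 against 0.69 for the sterol enzymes. With *Insig1* (0.71), 19 of the 36 genes passed. They were 52.8% of the set and 22.6% of the 84 genes of the transcriptome that passed. Against CTRL, the 24 genes over 1.5-fold higher in TGF-β were 66.7% of the set and 10.3% of 234 such genes. *Tm7sf2* and *Mvd* ranked 8 and 12 of all genes in the direct comparison, above *Hmgcs1* (rank 51) and *Idi1* (rank 52). *Hmgcs1* and *Idi1* were among the 3 over 1.5-fold higher in GDF15 than in CTRL. In the direct comparison, Spearman's rho between change and length was -0.30 over 9192 genes and -0.43 within the 18 sterol enzymes, as a description. *Tm7sf2* (1498 bases) and *Mvd* (1756) have shorter transcripts than *Hmgcs1* (3464) and *Idi1* (3027). With the length trend removed, *Hmgcs1* and *Idi1* rose from 0.67 each to 0.73 and 0.71. *Tm7sf2* fell to 1.06, and both *Tm7sf2* and *Mvd* stayed over 2-fold higher. Both direct and CTRL comparisons use the same TGF-β library.

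**Figure D4:**
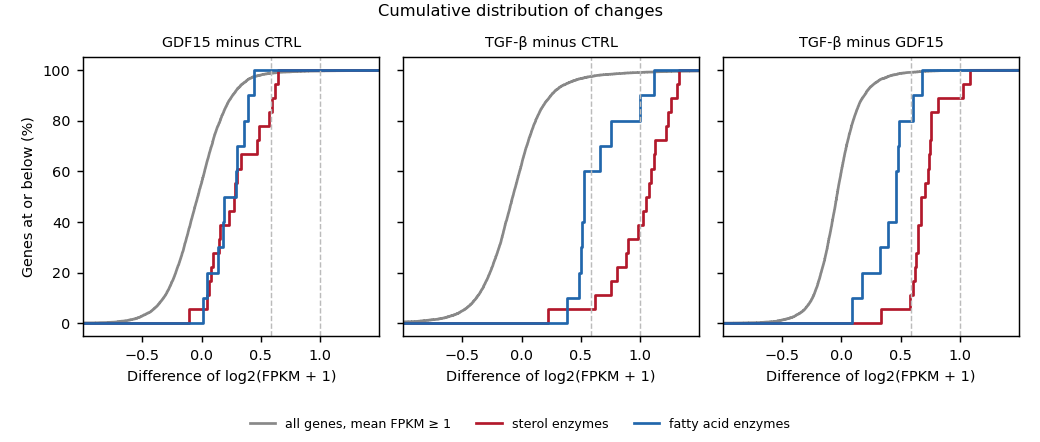
Cumulative share (%) of genes at or below each difference of log2(FPKM + 1) for all 9226 genes above the minimum FPKM (grey), the 18 sterol enzymes (red) and the 10 fatty acid enzymes (blue), in 3 comparisons; dashed lines mark 1.5-fold and 2-fold. At their medians both enzyme curves lie right of the grey curve, but the grey curve extends beyond both at the top. The medians are 0.28 (sterol) and 0.24 (fatty acid) in GDF15 minus CTRL and 1.06 and 0.53 in TGF-β minus CTRL.

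The bases upstream of the starts of the members were also examined, as a description. RefSeq promoter windows (GRCm38.p6) were matched by symbol for 29 of the 36 genes, in 38 windows, and the 250 bases before each start were searched on both strands. The genes not matched were *Fdps*, *Fdft1*, *Sqle*, *Stard4*, *Scd1*, *Scd2* and *Fads1*. The letters CCAAT, the core bound by NF-Y, a factor known to act with SREBP, were found before 14 of 15 sterol enzymes. They were found before 3 of 7 fatty acid enzymes (*Acss2*, *Fasn* and *Me1*), 4 of 5 genes of sterol sensing and 41.4% of 6991 other genes above the minimum that had a window. *Acat2* was the sterol enzyme without a match, and it was 0.98 higher in TGF-β. TCACNCCAC, written after the sterol regulatory element, was found before *Hmgcs1* only of the 29 (1.20% of the 6991 genes). Only these exact letters were searched, so variants of the element and sites beyond the 250 bases would be missed. The E-box CACGTG was found before 3 of the 15 sterol enzymes (*Hsd17b7*, *Sc5d* and *Dhcr7*), 2 of 5 genes of sterol sensing (*Insig1* and *Scap*, with changes of 0.90 and -0.15 in TGF-β), 0 of 7 fatty acid enzymes and 10.3% of the 6991 genes. Such matches are descriptions of letters and say nothing of binding in these cells.

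The 180 bases before the RefSeq start are given below for the 4 sterol enzymes with the largest changes in TGF-β that had a window, *Hsd17b7*, *Hmgcs1*, *Idi1* and *Tm7sf2*, and for *Mvd*, which with *Tm7sf2* differed most between TGF-β and GDF15. *Ebp*, the sterol enzyme that moved least, and *Fasn*, of the fatty acid enzymes, are given for contrast. The RefSeq start lies inside the GENCODE gene model, from which lengths and overlaps were taken, by 523 bases for *Tm7sf2*, 105 for *Idi1* and 36 for *Hsd17b7*, so that the stretch of *Tm7sf2* lies wholly within that model. Each runs in the direction of the gene, and capitals mark the searched letters (ATTGG is CCAAT on the other strand).
Hmgcs1, chr13:119690171-119690350, plus strand: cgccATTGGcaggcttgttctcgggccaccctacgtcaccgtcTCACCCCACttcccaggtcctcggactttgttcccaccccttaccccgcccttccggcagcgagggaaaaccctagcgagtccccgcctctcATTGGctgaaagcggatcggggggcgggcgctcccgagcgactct
Hsd17b7, chr1:169969206-169969385, minus strand: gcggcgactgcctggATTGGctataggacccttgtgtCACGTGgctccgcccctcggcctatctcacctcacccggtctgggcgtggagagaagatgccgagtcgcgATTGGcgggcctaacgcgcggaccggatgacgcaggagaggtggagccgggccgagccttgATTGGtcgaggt
Idi1, chr13:8885426-8885605, plus strand: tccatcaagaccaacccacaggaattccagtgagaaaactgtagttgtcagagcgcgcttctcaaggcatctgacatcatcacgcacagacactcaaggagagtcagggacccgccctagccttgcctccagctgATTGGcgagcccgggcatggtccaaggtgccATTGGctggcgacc
Tm7sf2, chr19:6067851-6068030, minus strand: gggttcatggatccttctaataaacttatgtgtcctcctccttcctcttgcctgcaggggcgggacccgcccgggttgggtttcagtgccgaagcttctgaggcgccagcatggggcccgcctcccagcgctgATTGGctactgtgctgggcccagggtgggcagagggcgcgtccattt
Mvd, chr8:122443423-122443602, minus strand: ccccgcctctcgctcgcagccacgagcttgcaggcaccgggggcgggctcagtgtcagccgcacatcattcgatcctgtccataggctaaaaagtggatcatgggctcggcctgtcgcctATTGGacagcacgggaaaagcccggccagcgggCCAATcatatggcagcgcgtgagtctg
Ebp, chrX:8193513-8193692, minus strand: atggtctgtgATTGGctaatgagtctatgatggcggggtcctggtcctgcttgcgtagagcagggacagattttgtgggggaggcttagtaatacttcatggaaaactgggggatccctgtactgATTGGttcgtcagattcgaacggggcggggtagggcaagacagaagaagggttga
Fasn, chr11:120824548-120824727, minus strand: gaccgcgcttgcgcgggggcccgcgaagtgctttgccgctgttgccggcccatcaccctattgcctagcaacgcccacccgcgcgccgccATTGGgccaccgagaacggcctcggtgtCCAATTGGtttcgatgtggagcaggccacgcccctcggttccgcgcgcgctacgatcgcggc

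*Hmgcs1* holds its match of TCACNCCAC between 2 of its matches of CCAAT, and *Hsd17b7* holds the E-box letters and 3 matches of CCAAT. *Ebp* carries 2 matches and had a change of 0.22 in TGF-β, and *Fasn* carries 3, of which 2 overlap. The number of matches in 250 bases ranged from 0 (*Acat2*) to 5 (*Mvk*) among the sterol enzymes, and the changes of these genes in TGF-β were 0.98 and 0.81. Whether the matches bear on the changes was not tested.

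Genes around these routes were followed in lists of 55 genes, of which 53 were in the table and 45 passed the minimum FPKM. In GDF15 0 of the 45 were over 1.5-fold higher or lower, beside 1.27% higher and 1.55% lower over all genes. In TGF-β 1 was over 1.5-fold higher and 0 were lower, beside 2.54% and 3.06%, so these counts were near the share over all genes and are no result about the 45. This gene was *Acsl3*, an acyl-CoA synthetase, with an FPKM of 23.4 in CTRL, 34.0 with GDF15 and 40.2 with TGF-β. The 9 genes of the isoprenoid branches (to dolichol, ubiquinone and protein prenylation) had a median change of 0.08 in TGF-β, so that *Ggps1*, which extends the product of *Fdps*, had 6.08, 7.06 and 6.61. The 7 genes of SREBP cleavage and of sterol-regulated degradation had a median of 0.11, with *Mbtps1*, the protease of the first cleavage, at 46.7, 51.7 and 48.3. Of 7 genes of LXR, the receptor that answers high sterol, and of sterol efflux, 3 passed the minimum, with changes from -0.53 to 0.06 in GDF15 and from -0.47 to 0.03 in TGF-β. The 4 genes of lysosomal sterol release and esterification had a median of -0.12. The 14 genes of fatty acid supply and glycerolipids that passed the minimum had a median of 0.21 and went both ways. Of these, 8 had a value above that of CTRL in TGF-β, such as *Hsd17b12* (58.2, 64.8 and 81.9) of the elongation complex, and 6 below, such as *Lpin3* (12.1, 11.4 and 8.56), a relative of *Lpin1*, neither over 1.5-fold. The 8 genes of fatty acid oxidation that passed it had a median of -0.13, with *Cpt1a*, the gate of mitochondrial import, at 47.4, 44.9 and 36.3.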

How the data were processed

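The authors deposited FPKM of protein coding genes reviewed in UniProt, calculated with Cufflinks from 50-base single-end reads of stranded mRNA libraries, 1 library per treatment from pooled RNA. The submitters' processing notes name TopHat 1.3.2, Bowtie 0.12.9, Cufflinks 2.0.2 and mm10. Columns were matched to samples by the treatment in their names. FPKM were used as deposited, on the scale log2(FPKM + 1), and genes whose FPKM averaged 1 or more over the libraries served as the background. Calls are folds of 1.5 and 2, with no test. The local spread is the median absolute deviation, scaled to an SD, among genes of like expression, and distances in spreads are taken from the median change of those genes. Lengths, coordinates of overlaps and GC content came from GENCODE M21, matched for 15463 of 15554 rows, 750 by an older symbol, and promoters from RefSeq. Members and lists were chosen with earlier results of these data known. All members are named with values, and other pathway genes when over 1.5-fold or as examples of their list, chosen after their values were seen. Pseudocounts, scaling, the minimum and trends of expression, length and GC content were varied. The scripts, checked on simulated data, used Python 3.11.15, numpy 2.4.6, pandas 2.3.3 and matplotlib 3.10.9.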

Additional observations from a re-analysis of the deposited data

How the results depend on the processing

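No paired analysis was possible because every treatment is a single pool of RNA. Leaving out a library was likewise not possible. The 7 alternatives that could move single members (all lie above the minimum FPKM) gave 756 values. Of these, 755 moved by less than the local spread and 1 moved by more (*Pmvk* in GDF15 minus CTRL with length and GC content removed). In GDF15 minus CTRL that spread was 0.19 to 0.31, about as large as the sterol and fatty acid medians (0.28 and 0.24). Of values past 1.5-fold 0 changed sign, which moves of this size could not bring about. Smaller values in GDF15 minus CTRL did change sign with the length trend removed, namely *Fasn* (0.13 to -0.03), *Scd1* (0.04 to -0.02) and *Ebp* (-0.11 to 0.02). With length and GC content removed, *Scap* (-0.06 to 0.005) and *Srebf1* (-0.04 to 0.02) did as well. The sterol median in TGF-β minus CTRL ranged from 1.06 to 1.14, and its excess over the fatty acid median from 0.52 to 0.59. In GDF15 minus CTRL the excess ranged from 0.03 to 0.11. In GDF15 minus CTRL, the count of sterol enzymes over 1.5-fold higher was 5 after removal of the running median by expression and 0 after removal of length and GC content, and that of fatty acid enzymes was 1 after the first. Over all genes the counts were 145 of 9226 after the first and 113 of the 9192 with a length after the second, so that the 0 is near the background. In TGF-β minus CTRL, the count of fatty acid enzymes over 1.5-fold higher was 4, but 5 without a pseudocount, with *Acaca*, and 6 with upper quartile scaling or the running median removed, with *Acaca* and *Fasn*. The count over all genes rose as well, from 234 to 291 without a pseudocount, 286 with upper quartile scaling and 299 with the running median removed. In the same comparison 2 fatty acid enzymes were over 2-fold higher with pseudocounts of 0.5, 0.1 or none, upper quartile scaling or the running median removed, since *Elovl6* lies near the limit. Over all genes these settings gave 99, 111, 117, 95 and 97 in that order, against 86. Over all genes, those over 2-fold higher in GDF15 minus CTRL numbered 32, but 51 with a pseudocount of 0.1 and 53 with none. Those over 1.5-fold higher numbered 117, and 179 without a pseudocount. Between TGF-β and GDF15, 12 became 20 with 0.1 or none. Depth is estimated, and single pooled libraries give no replicate error.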
